A study of Mus musculus with 2 samples.

Results

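Osteopontin, the product of Spp1, and its best-known cell-surface receptors are described here across the cells of luminal-lineage mouse mammary tumors. The genes were taken by name: the ligand gene Spp1, the hyaluronan and osteopontin receptor gene Cd44, and the integrin chain genes Itgav, Itgb3 and Itgb5, which makes 5 of the 32285 genes in the deposited matrices, and all 5 were measured. The data come from single-cell RNA sequencing of tumors of 2 MMTV-PyMT mice of 1 group, labelled as luminal labelled mouse 1 and mouse 2. Both mice carried Krt8-CreERT, the Rosa26-mTmG reporter and the MMTV-PyMT oncogene, and both received 150 mg/kg tamoxifen on 3 days in week 5 and on 3 days in week 6. Tumors were taken at a volume of 1.5 cm3. There was no untreated or wild-type mouse, so the comparisons were made between the authors' 18 clusters of tumor cells, numbered 0 to 17, within each mouse, and the mouse was the replicate. Recombination depends on Krt8 activity at the time of tamoxifen, so a green cell descends from, or is, a cell that then made this luminal keratin. The cells were also sorted as negative for DAPI, CD31 and CD45, and whether the 2 libraries pool several tumors of a mouse is not given in the sources used here.

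Osteopontin is a secreted, phosphorylated glycoprotein best known from bone and from activated macrophages, and it is also made in milk and in many carcinomas. It carries an RGD sequence that is read by integrins, chiefly alpha v paired with beta 3 or beta 5, and it can be cut by proteases such as thrombin and matrix metalloproteinases, which exposes further integrin-binding sequence. CD44 is a hyaluronan receptor whose variant forms bind osteopontin without the RGD sequence and which is widely used as a marker of basal and stem-like mammary cells. An integrin acts only as a pair of an alpha and a beta chain, so Itgav is the partner that Itgb3 and Itgb5 share.

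Spp1 (ENSMUSG00000029304) lies on chromosome 5 at 104435118 to 104441050 on the plus strand of GRCm38, in GENCODE vM21. Cd44 (ENSMUSG00000005087) lies on chromosome 2 at 102811141 to 102901665 on the minus strand, and Itgav (ENSMUSG00000027087) on the same chromosome at 83724397 to 83806916 on the plus strand. Itgb3 (ENSMUSG00000020689) lies on chromosome 11 at 104608000 to 104670476 and Itgb5 (ENSMUSG00000022817) on chromosome 16 at 33829665 to 33949338, both on the plus strand. The libraries read the 3′ end of transcripts, so the variant forms of Cd44 could not be told apart.

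The promoter of Spp1 is shown because 2 families of transcription factors known to act on it, RUNX and ETS, have members that differed between the clusters compared below. The RefSeq table holds 2 windows for Spp1, and the one shown is that of the upstream start site. It runs from 250 bases before to 50 bases after the start site, at chr5:104434861-104435160 on the plus strand of GRCm38.p6 (RefSeq). Capitals mark the letters AACCACA, a RUNX motif, and GGAAGT, an ETS motif.
Spp1 promoter: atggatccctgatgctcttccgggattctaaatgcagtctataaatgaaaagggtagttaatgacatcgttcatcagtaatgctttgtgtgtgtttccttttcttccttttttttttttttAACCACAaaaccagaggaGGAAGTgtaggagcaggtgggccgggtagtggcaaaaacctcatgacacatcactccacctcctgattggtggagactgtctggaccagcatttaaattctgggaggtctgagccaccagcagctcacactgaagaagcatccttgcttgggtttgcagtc
The RUNX letters begin 129 bases and the ETS letters 111 bases before the start site, and they do not overlap. Both strands were searched. Of 32851 promoter windows of the same length, 5.27% held AACCACA and 23.8% held GGAAGT, so the second match is a common one. The AP-1 letters TGANTCA, found in 7.81% of windows, were not in this one. The other Spp1 window, at chr5:104435942-104436241, held none of the 3 motifs. Of the 5 genes, 4 matched an entry of the promoter table, and neither the RUNX nor the AP-1 letters were found in the windows of Cd44, Itgav and Itgb5. The ETS letters were found 2 times in the window of Itgav and not in those of Cd44 and Itgb5. A match is a description of letters, not of binding.

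The matrices held 63140346 UMIs (unique molecular identifiers, 1 per captured transcript) in 6175 barcodes of mouse 1 and 61529883 UMIs in 7538 barcodes of mouse 2. The authors' annotation covered 3829 and 5330 of these barcodes, with medians of 15014 and 9470 UMIs per cell. A UMI of the epithelial gene Epcam was seen in 94.1% and 94.5% of annotated cells, and of the leukocyte gene Ptprc, which encodes CD45, in 0% and 0.131%, the marker the sort was negative for. The libraries shared 20 barcodes, 9 of them annotated in both. In the annotated cells, Spp1 had 56372 and 67651 UMIs, Cd44 9366 and 9162, Itgav 4912 and 6290, Itgb5 2033 and 1885, and Itgb3 only 547 and 360, so that values of Itgb3 are the least certain.

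Spp1 was high in cluster 6 in both tumors, and it was far from uniform elsewhere. Levels are given as CPM, which scales the summed UMIs of a gene in 1 cluster of 1 mouse to a total of 1000000 UMIs. Cluster 6 had mean luminal progenitor scores of 0.619 and 0.678, mean mature luminal scores of 0.551 and 0.641, and mean basal scores of 0.926 and 0.967 in the 2 mice, on a scale of 0 to 1. There Spp1 stood at 6811 CPM in mouse 1 and 6701.5 CPM in mouse 2, with a mean of 6756 ± 77.8 CPM (SD, n = 2). The next places by mean were held by clusters 11, 2 and 12. Cluster 11 had 2170 and 2916 CPM, cluster 2 had 2290 and 2667 CPM, and cluster 12 had 2349 and 2463 CPM. In mouse 1 the highest cell of each held 30.3%, 22.8% and 49.8% of the cluster's Spp1 UMIs, in that order. In mouse 2 these shares were 15.8%, 1.69% and 6.62%. The cluster 12 level of mouse 1 thus rested largely on 1 cell. The lower of the cluster 6 values was above the higher value of every other cluster, whereas clusters 11, 2 and 12 overlapped each other between the mice.

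**Figure D1:**
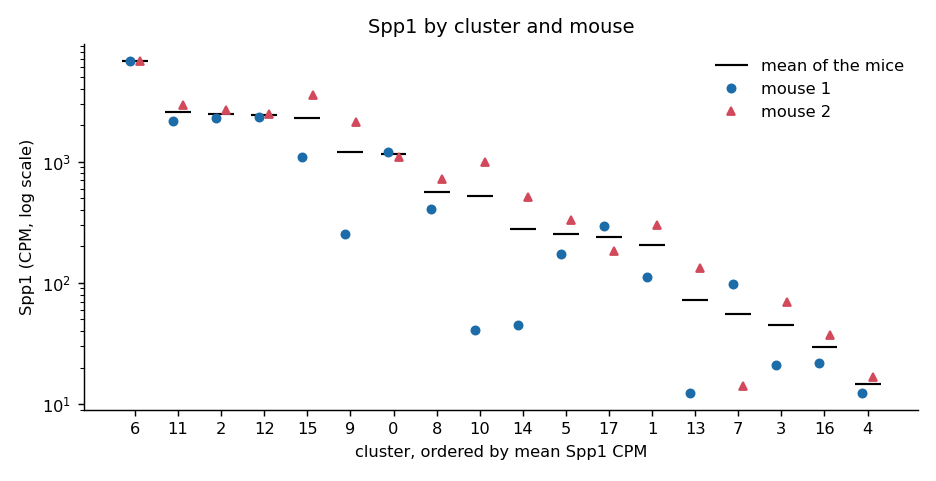
Spp1 in CPM on a log axis for each of the 18 clusters, ordered by the mean of the 2 mice (line), with mouse 1 as circles and mouse 2 as triangles. Cluster 6 stands first in both mice at 6811 and 6701.5 CPM, and the mice differ most in the middle of the order, as in cluster 10 with 40.9 and 995 CPM.

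Cluster 15, with mean basal scores of 0.723 and 0.925, showed 1088 CPM in mouse 1 and 3515 CPM in mouse 2, but in mouse 2 it held 17 cells and 1 of them carried 954 of the 1036 Spp1 UMIs (92.1%). The same cluster without cells that had UMIs of at least 3 genes of another cell type stood at 1053 and 296 CPM, so the high value of mouse 2 is that of 1 cell. Clusters 9, 10 and 14 also differed between the tumors, with 252 and 2130 CPM, 40.9 and 995 CPM, and 44.5 and 513 CPM. Cluster 0, the largest, had 1194.5 and 1102 CPM, which was nearly the same in both mice. Clusters 8, 5, 17 and 1 lay between 112 and 723 CPM in either mouse.

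The lowest Spp1 levels were in clusters 13, 7, 3, 16 and 4. Cluster 13, with mean mature luminal scores of 0.998 and 1.000, had 12.3 and 132 CPM, cluster 7 had 97.6 and 14.0 CPM, and cluster 3 had 21.2 and 69.0 CPM. Cluster 16, whose mean basal scores of 0.976 and 0.963 were as high as those of cluster 6, had 21.7 and 37.1 CPM, so a high basal score alone did not go with high Spp1. Cluster 4 was lowest by mean with 12.4 and 16.6 CPM. From the highest to the lowest mean, Spp1 spanned 466-fold. Of the 17 pairs of neighbours in the order, 14 overlapped between the mice, so that apart from the place of cluster 6 the order is mostly not resolved by 2 tumors. Spp1 was higher in mouse 2 in 14 of the 18 clusters, and across clusters its log2(CPM + 1) values in the 2 mice had a Pearson r of 0.81, a description over 18 clusters that share libraries.

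Within clusters Spp1 was concentrated in few cells. The 10% of annotated cells with the most Spp1 UMIs held 93.4% of all Spp1 UMIs in mouse 1 and 89.4% in mouse 2. In cluster 6 the corresponding shares were 51.9% and 69.1%, and the single highest cell held 5.55% and 14.1% of the cluster's Spp1 UMIs. The median cell of cluster 6 had 1648 CPM in mouse 1 and 122 CPM in mouse 2, so the summed levels were alike in the tumors and the median cells were not. Cluster 6 held 5.82% and 2.79% of all UMIs of the annotated cells but 41.2% and 15.8% of the Spp1 UMIs. In mouse 2, clusters 2 and 0 held more of the Spp1 UMIs, with 29.6% and 25.4%.

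The share of cells with at least 1 UMI depends on depth, so each cell was also thinned to 2000 UMIs, and cells below that depth were left out. At this depth Spp1 was detected in 60.8% of 245 cluster 6 cells in mouse 1 (exact 95% interval 54.4 to 67.0%) and in 46.5% of 157 cells in mouse 2 (38.5 to 54.6%). Without thinning the shares were 70.0% and 56.3%. In cluster 2 they were 38.3% of 47 cells and 60.6% of 639 cells, in cluster 0 25.7% of 960 cells and 19.0% of 1321 cells, and in cluster 13 2.78% of 72 cells and 8.74% of 183 cells. Cluster 4 was lowest in both mice at 0.820% of 122 cells and 1.66% of 421 cells, which are the lowest shares of any cluster at equal depth. Beside these, 63 unannotated barcodes of mouse 2 with T and NK cell genes had a Spp1 UMI in 7.94%, unthinned and at a median of 2923 UMIs. Intervals cover counting error only.

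Cells with many Spp1 UMIs were common in cluster 6. At 2000 UMIs per cell, 36.3% and 29.3% of its cells carried 10 or more Spp1 UMIs, against 14.9% and 21.6% in cluster 2, 9.48% and 8.25% in cluster 0, and 0% and 1.09% in cluster 13. The share of 0% rests on 72 cells, where a floor of 3 counts corresponds to 4.17%. In cells where Spp1 was detected, the mean was 25.2 and 32.5 UMIs in cluster 6, from 149 and 73 cells. In cluster 13 it was 1.00 and 2.81 UMIs, from 2 and 16 cells. Cluster 6 and cluster 13 thus differed in the share of cells with the transcript in both mice. The amount per positive cell differed too, but its cluster 13 value in mouse 1 rests on 2 cells, below the floor of 3 counts.

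Cd44 followed an order of clusters that was the same in both mice for its first 5 places. Cluster 6 was first with 340 and 402 CPM (mean 371 ± 43.4, SD, n = 2), followed by cluster 10 with 304 and 315 CPM, cluster 0 with 204 and 215 CPM, cluster 12 with 186 and 211 CPM and cluster 7 with 172 and 197 CPM. The 2 mice did not overlap between clusters 6 and 10, nor between clusters 10 and 0. The first of these depended on cells that had UMIs of at least 3 genes of another cell type. Without such cells, cluster 6 had 304 and 420 CPM and cluster 10 had 305 and 319 CPM. Their ranges then overlapped, and cluster 10 was slightly above cluster 6 in mouse 1. Cluster 13 was lowest by mean with 50.8 and 57.1 CPM. The span from the highest to the lowest mean was 6.88-fold. In cluster 10, second for Cd44, Spp1 was 40.9 CPM in mouse 1 and 995 CPM in mouse 2.

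**Figure D2:**
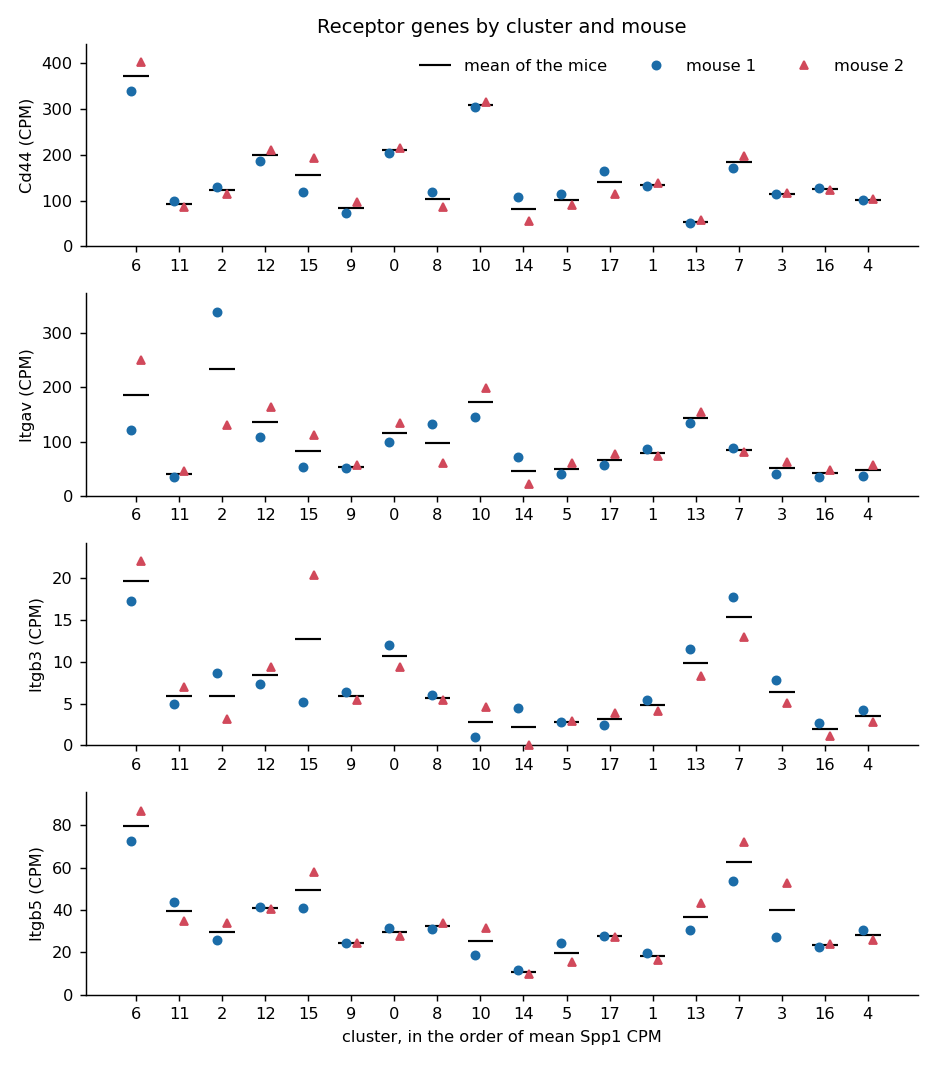
Cd44, Itgav, Itgb3 and Itgb5 in CPM by cluster, each on its own linear axis, with clusters in the order of mean Spp1 (line, mean; circles, mouse 1; triangles, mouse 2). Over all annotated cells, cluster 6 is highest for Cd44 and Itgb5 in both mice. Itgav is highest in cluster 2 of mouse 1 (339 CPM) and in cluster 6 of mouse 2 (251 CPM).

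Itgav, the alpha chain, did not share that order. Its highest mean was in cluster 2, with 339 CPM in mouse 1 and 130 CPM in mouse 2, and the second in cluster 6, with 122 and 251 CPM. Cluster 10 had 146 and 199 CPM, and cluster 13, lowest by mean in Cd44, had 134 and 155 CPM. The tumors disagreed on the leading cluster, and 16 of 17 neighbouring pairs overlapped between the mice. The lowest mean was 40.1 CPM, in cluster 11, so the span was 5.86-fold.

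The beta chains were both highest in cluster 6 by mean, with cluster 7 next. Itgb5 had 72.4 and 86.8 CPM in cluster 6 and 53.7 and 72.0 CPM in cluster 7. The other clusters of either mouse had 9.95 to 57.7 CPM. Clusters 6 and 7 did not overlap, by a narrow margin of 72.4 against 72.0 CPM. Without the cells of other types, Itgb5 stood at 59.7 and 69.7 CPM in cluster 6 and at 53.8 and 72.7 CPM in cluster 7. These ranges overlapped, and cluster 7 was above cluster 6 in mouse 2. Itgb3 had 17.3 and 22.0 CPM in cluster 6, where it rested on 59 and 35 UMIs, and 17.7 and 13.005 CPM in cluster 7, and all 17 neighbouring pairs overlapped between the mice. Cluster 7 was near the bottom of the Spp1 order, so the cluster second in both beta chains was 1 of the clusters with little ligand.

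Among the 5 genes, the patterns of Itgb3 and Itgb5 over the clusters were the most alike by mean r. Over the 18 clusters, and averaged over the mice, the Pearson r of log2(CPM + 1) between Spp1 and the receptor genes was 0.35 for Cd44, 0.35 for Itgav, 0.34 for Itgb3 and 0.33 for Itgb5, while Itgb3 and Itgb5 had 0.73 and Itgav and Cd44 0.51. The mice differed in several of these. In mouse 1 and mouse 2, r with Spp1 was 0.42 and 0.29 for Cd44, 0.32 and 0.38 for Itgav, 0.34 and 0.35 for Itgb3, and 0.56 and 0.11 for Itgb5. It was 0.62 and 0.84 between Itgb3 and Itgb5 and 0.31 and 0.72 between Itgav and Cd44. These r values describe clusters that share 2 libraries. Among 7981 other genes with enough counts, the patterns most like that of Spp1 were those of App (r 0.85), which encodes the amyloid precursor protein, Olfml3 (0.83), a secreted olfactomedin-like protein, and Serpinh1 (0.83), the collagen chaperone HSP47. Those most like Cd44 were Nr3c1 (0.80), the glucocorticoid receptor, Pde4b (0.79), a cyclic AMP phosphodiesterase, and Amotl1 (0.79), an angiomotin family member. For Itgav they were Nfkb1 (0.87), an NF-kappa B subunit, Esyt2 (0.85), an extended synaptotagmin, and Il4ra (0.84), the interleukin 4 receptor alpha chain. For Itgb5 they were Fndc3b (0.82), Creb3l2 (0.81) and Chad (0.77), which encodes the matrix protein chondroadherin, and for Itgb3 Fndc3b (0.71), Kif5c (0.69), a kinesin, and St3gal1 (0.66), a sialyltransferase.

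The contrast of cluster 6 with cluster 13 sets tumor cells with a high mean basal score and mean luminal scores above 0.5 against cells with a high mature luminal score and low progenitor (0.0381 and 0.129) and basal (0.151 and 0.196) scores, and the study drew it too. Spp1, Cd44 and Itgb5 were higher in cluster 6, and Itgav and Itgb3 did not pass the test. The test was edgeR's quasi-likelihood test on the UMI sums of each cluster and mouse with the mouse as a block, with Benjamini-Hochberg adjusted p under 0.05 over 9794 genes. In it 28.4% of genes passed, 16.3% as higher and 12.1% as lower in cluster 6. Because the authors clustered cells on this same expression, a call says only that both tumors show the difference. Spp1 was moreover singled out by the study in this contrast, and its values are given here as a description.

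Spp1 had 6811 and 6701.5 CPM in cluster 6 and 12.3 and 132 CPM in cluster 13, and the ratio was 554 in mouse 1 and 50.8 in mouse 2, a fitted log2 fold change of 6.90 (SE 0.40). The ratios differed widely between the tumors while the cluster 6 levels did not, and the cluster 13 levels behind them rested on 15 and 319 UMIs. Cd44 had 340 and 402 CPM in cluster 6, against 50.8 and 57.1 CPM in cluster 13. Its ratio was alike in both mice, 6.70 and 7.04, with a log2 fold change of 2.68 (SE 0.26, edgeR adjusted p = 3.0e-10). Itgb5 had 72.4 and 86.8 CPM in cluster 6, against 30.3 and 43.4 CPM in cluster 13, a log2 fold change of 1.02 (SE 0.29, edgeR adjusted p = 0.0074). The groups of these 3 genes did not overlap. The share of all genes tested without overlap was not computed, so this separation is not a result about these genes.

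Itgav had 122 and 251 CPM in cluster 6 and 134 and 155 CPM in cluster 13, with ratios of 0.915 and 1.62 that lay on either side of 1 (log2 fold change 0.20, SE 0.25, edgeR adjusted p = 0.63). Itgb3 had 17.3 and 22.0 CPM in cluster 6 and 11.5 and 8.27 CPM in cluster 13 (log2 fold change 0.92, SE 0.41, edgeR adjusted p = 0.097). Of the 4 receptor genes, 2 were called higher in cluster 6, against 16.3% of all genes tested, and none was called lower. The call of Itgb5 was lost with DESeq2 (adjusted p = 0.25) and when cells with genes of other types were left out (log2 fold change 0.77, edgeR adjusted p = 0.094), and when any 1 of the 4 sums was left out (adjusted p from 0.071 to 0.29). Leaving out the cluster 6 sum of mouse 1 or of mouse 2 ended the call of Spp1 (log2 fold change 6.37 and 6.44, edgeR adjusted p = 0.075 and 0.12), and that of mouse 2 ended the call of Cd44 (2.58, adjusted p = 0.065). Without the cluster 6 sum of mouse 2 the edgeR fit called 0 genes in all, with 3053 at an unadjusted p under 0.05.

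Fibroblast genes moved with this comparison. All 13 fibroblast marker genes had UMIs in cluster 6 of both mice, with a summed level of 1799 and 3570 CPM, against 39.4 and 325 CPM in cluster 13, where 10 and 6 of the 13 genes were at 0. Cells with UMIs of at least 3 of them numbered 66 of 260 and 39 of 167 in cluster 6 and 0 in cluster 13. Macrophage marker genes summed to 138 and 328 CPM in cluster 6, against 59.0 and 165 CPM in cluster 13, and osteoclast marker genes, of which 3 and 2 of 6 were at 0 in cluster 6, to 45.4 and 98.1 CPM, against 23.8 and 15.3 CPM. Endothelial marker genes summed to 29.9 and 392 CPM in cluster 6, against 13.1 and 15.3 CPM in cluster 13, and pericyte marker genes to 27.6 and 304 CPM, against 55.8 and 53.8 CPM. Cells with at least 3 endothelial genes numbered 3 and 12 in cluster 6 and 0 in cluster 13, and they had 113 and 52.6 CPM of Itgb3, from 3 and 6 UMIs. Without the cells that carried at least 3 fibroblast, endothelial, macrophage, or T and NK cell genes, Spp1 stood at 5482 and 9291 CPM in cluster 6, against 12.8 and 132 CPM in cluster 13, and its log2 fold change was 7.07. That of Cd44 was then 2.67 and that of Itgb3 0.80 (edgeR adjusted p = 0.25).

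**Figure D3:**
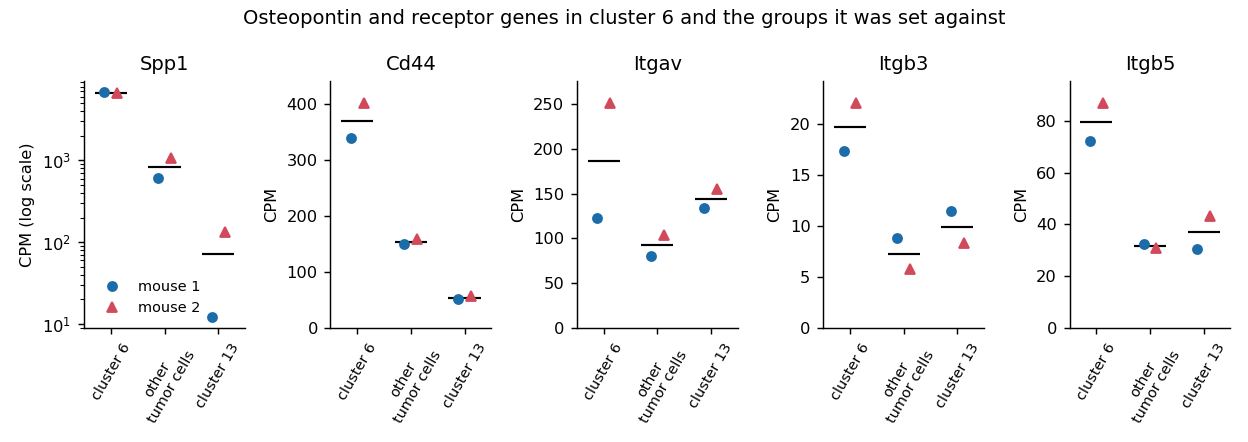
CPM of the 5 genes in cluster 6, in the other tumor cells and in cluster 13, for mouse 1 (circles) and mouse 2 (triangles), with the mean as a line; Spp1 is on a log axis and the others on linear axes from 0. Every cluster 6 value lies above the other tumor cells, and Itgav of cluster 6 (122 and 251 CPM) overlaps cluster 13 (134 and 155 CPM).

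Against the rest of the tumor, all annotated cells outside clusters 6 and 13, all 5 genes were higher in cluster 6. In this test 18.8% of 14350 genes passed, 12.1% as higher and 6.63% as lower in cluster 6. Spp1 had 6811 and 6701.5 CPM in cluster 6 and 613 and 1070 CPM in the other tumor cells, a log2 fold change of 3.02 (SE 0.24, edgeR adjusted p = 7.4e-05). The study had picked Spp1 for its level in these same cluster 6 cells, so its call here too is a description and not independent support. Cd44 had 340 and 402 CPM in cluster 6 and 151 and 158 CPM in the other tumor cells, a log2 fold change of 1.22 (SE 0.16, edgeR adjusted p = 0.0011). None of the 5 genes overlapped between the groups. The share of all genes tested without overlap was not computed, so this separation is not a result about the 5 genes.

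The integrin chains rose by less than 3-fold by the fitted values. Itgav had 122 and 251 CPM in cluster 6 and 80.2 and 104 CPM in the other tumor cells (log2 fold change 0.90, SE 0.18, edgeR adjusted p = 0.010). Itgb3 had 17.3 and 22.0 CPM in cluster 6 and 8.78 and 5.76 CPM in the other tumor cells (log2 fold change 1.39, SE 0.31, edgeR adjusted p = 0.014). Itgb5 had 72.4 and 86.8 CPM in cluster 6 and 32.4 and 31.0 CPM in the other tumor cells (log2 fold change 1.28, SE 0.17, edgeR adjusted p = 0.0012). The calls of Itgav and Itgb3 were lost without the mouse block (edgeR adjusted p = 0.19 and 0.083), and the call of Itgb3 was lost after thinning (adjusted p = 0.073). With 1 of the 4 sums left out, Spp1 kept its call each time and Itgb3 lost it each time (adjusted p from 0.11 to 0.30), while without the cluster 6 sum of mouse 2 or either sum of the other tumor cells the calls of Cd44 (0.071 to 0.12), Itgb5 (0.085 to 0.15) and Itgav (0.31 to 0.54) were lost, again as adjusted p. Marker genes of other cell types differed here too. Fibroblast genes summed to 1799 and 3570 CPM in cluster 6 and 7.35 and 6.63 CPM in the other tumor cells, endothelial genes to 29.9 and 392 CPM in cluster 6 and 2.67 and 4.55 CPM there, and pericyte genes to 27.6 and 304 CPM in cluster 6 and 17.04 and 37.3 CPM there. Macrophage genes were lower in sum in cluster 6, with 138 and 328 CPM, against 289 and 553 CPM in the other tumor cells. Without the cells that carried at least 3 genes of another type all 5 genes kept their calls, with log2 fold changes of 3.14 for Spp1, 1.201 for Cd44, 0.87 for Itgav, 1.09 for Itgb3 and 1.01 for Itgb5 (edgeR adjusted p of 0.012 or less). The comparison shares the cluster 6 sums with the one against cluster 13, so the pair was not set against each other.

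Of 52 listed genes around osteopontin and its receptors, 41 were tested with cluster 13, and 19 were higher and 8 lower in cluster 6, against 16.3% and 12.1% of all genes tested. Postn, Edil3, Dmp1 and Mmp3, with 1 UMI or none in cluster 13, entered the test only through their cluster 6 counts. Such genes could not have been called lower, so their part in the counts of higher genes is a description. Of the 8 other ligands of alpha v integrins, 6 were tested and 5 were higher, with a median log2 fold change of 3.54 over the tested genes, against 0.01 over all genes tested. Postn, which encodes the matrix protein periostin, had 680 and 832 CPM in cluster 6 and 1 UMI in all of cluster 13, a ratio of 2648 with a counting interval of 475 to 104612. Fn1, fibronectin, had 424 and 497 CPM in cluster 6 and 0 and 104 CPM in cluster 13 (edgeR adjusted p = 1.0e-06). Edil3, an RGD protein of endothelium and matrix, had 14.1 and 27.0 CPM in cluster 6 and 1 UMI in cluster 13, a ratio of 66.2 (11.6 to 2642). The fibroblast marker genes given above were higher in the same direction as these matrix genes, and their part in the ligand levels was not tested.

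The SIBLING family of bone matrix proteins, to which osteopontin belongs, had 1 further gene that could be tested of 4. Dmp1, dentin matrix protein 1, had 133 and 33.3 CPM in cluster 6 and no UMI in cluster 13, at least 123-fold higher against a floor of 3 counts over the group. Of the 7 genes for enzymes that phosphorylate, crosslink or cut osteopontin, 4 were tested. Of these, 2 were higher and 1 was lower, beside 16.3% and 12.1% of all genes tested, with a median log2 fold change of 0.82. Mmp3, stromelysin-1, had 220 and 86.8 CPM in cluster 6 and no UMI in cluster 13, at least 216-fold higher. Fam20c, the kinase that phosphorylates secreted proteins, had 20.8 and 10.1 CPM in cluster 6 and 4.92 and 1.65 CPM in cluster 13 (edgeR adjusted p = 0.0017). Tgm2, a transglutaminase, went the other way with 24.0 and 33.3 CPM in cluster 6 and 152 and 374 CPM in cluster 13 (edgeR adjusted p = 5.4e-11).

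On the receptor side the picture was mixed. Of 6 genes for other integrin chains known to bind osteopontin, 5 were tested. Of these, 3 were higher and 1 was lower, beside 16.3% and 12.1% of all genes tested, with a median log2 fold change of 0.87. Itga8 had 9.09 and 13.2 CPM in cluster 6 and 1.64 and 1.24 CPM in cluster 13 (edgeR adjusted p = 9.0e-04), and Itga9, whose product reads the protease-exposed sequence, had 5.57 and 17.6 CPM in cluster 6 and 2.46 and 2.07 CPM in cluster 13 (edgeR adjusted p = 0.0054). Itgb6, another beta chain that pairs with alpha v and an epithelial one, was lower with 23.2 and 27.7 CPM in cluster 6 and 91.0 and 77.8 CPM in cluster 13 (edgeR adjusted p = 9.3e-06). Itgb1, a further partner of Itgav and named here after its values were seen, was higher with 509.9 and 748 CPM in cluster 6 and 295 and 342 CPM in cluster 13 (log2 fold change 0.87, SE 0.22, edgeR adjusted p = 0.0025).

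Of the genes for hyaluronan synthases, which make the other ligand of CD44, Has1 and Has2 were higher in cluster 6, and Has3, with 10 UMIs in cluster 6 and 0 in cluster 13, was not tested. Has1 had 36.9 and 113 CPM in cluster 6 and 1.64 and 1.65 CPM in cluster 13 (edgeR adjusted p = 6.8e-11), and Has2 had 96.8 and 115 CPM in cluster 6 and 10.7 and 7.45 CPM in cluster 13 (edgeR adjusted p = 7.3e-10). These were the 2 called of 4 hyaluronan genes tested, of 6 listed, and the median log2 fold change of the tested genes was 1.92. Of 6 genes for partners of CD44 or regulators of its splicing, 2 were higher and 3 were lower, with a median of -0.28. The counts of both lists stand beside 16.3% higher and 12.1% lower among all genes tested. Met, the hepatocyte growth factor receptor, had 74.2 and 96.2 CPM in cluster 6 and 32.8 and 34.3 CPM in cluster 13 (edgeR adjusted p = 0.0011), while Ezr, the linker ezrin, had 585 and 530.1 CPM in cluster 6 and 1116 and 1154 CPM in cluster 13 (edgeR adjusted p = 3.6e-05). Esrp2, a splicing regulator that favours the epithelial variant forms of CD44, had 8.50 and 15.1 CPM in cluster 6 and 27.1 and 33.5 CPM in cluster 13 (edgeR adjusted p = 0.0023).

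Of 9 genes of integrin adhesion and signalling, all were tested, 3 were higher and 1 was lower, with a median log2 fold change of 0.24. The 3 higher genes were Fermt1, a kindlin that activates integrins, with 101 and 123 CPM in cluster 6 and 21.3 and 72.4 CPM in cluster 13, Ilk, the integrin-linked kinase, with 58.9 and 81.7 CPM in cluster 6 and 26.2 and 30.6 CPM in cluster 13, and Tln1, talin, with 172 and 186 CPM in cluster 6 and 92.7 and 88.9 CPM in cluster 13. Of 6 transcription factors known to act on Spp1, 1 was higher and 2 were lower, with a median of -0.16, beside the 16.3% and 12.1% of all genes tested, so 1 higher gene of 6 is close to that background. Runx2, the bone and mammary RUNX factor, had 36.9 and 18.9 CPM in cluster 6 and 0.820 and 2.07 CPM in cluster 13 (log2 fold change 3.82, SE 0.55, edgeR adjusted p = 1.1e-06). The AP-1 genes went the other way. Fos had 208 and 508 CPM in cluster 6 and 685 and 725 CPM in cluster 13, and Jun had 755 and 907 CPM in cluster 6 and 1492 and 1331 CPM in cluster 13. Both were lower in cluster 6 (edgeR adjusted p = 1.7e-04 and 6.6e-04). The more abundant RUNX gene Runx1 had 326 and 374 CPM in cluster 6 and 415 and 398 CPM in cluster 13 and did not pass (edgeR adjusted p = 0.33). The ETS genes Ets1 and Elf5 did not pass either (edgeR adjusted p = 0.98 for each).

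Set against the other tumor cells, 23 of the 45 genes tested from these lists were higher in cluster 6 and 3 were lower, against 12.1% and 6.63% of all genes tested, and the median log2 fold change of all genes tested was -0.06. Of the other ligands of alpha v integrins, 5 of 7 tested were higher, with a median of 4.24. Postn had 680 and 832 CPM in cluster 6 and 6.28 and 3.13 CPM in the other tumor cells, Fn1 had 424 and 497 CPM in cluster 6 and 5.61 and 1.51 CPM there, and Tnc, tenascin C, had 4.98 and 89.9 CPM in cluster 6 and 0.352 and 0.850 CPM there. The fibroblast marker genes differed in the same direction, and their part in these ligand levels was not tested. Has1 and Has2, at 36.9 and 113 CPM and 96.8 and 115 CPM in cluster 6, stood at 0.685 and 1.28 CPM and 0.611 and 0.434 CPM in the other tumor cells (edgeR adjusted p = 2.1e-06 and 6.3e-07). Both SIBLING genes that could be tested were higher, but Ibsp entered the test only through cluster 6 and could not have been called lower. Dmp1 had 2.43 and 0.359 CPM in the other tumor cells (edgeR adjusted p = 1.7e-06), and Ibsp, bone sialoprotein, had 18 UMIs in cluster 6, 16 of them in mouse 2, and none in the other tumor cells, at least 128-fold higher against the same floor.

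Of the integrin chains in that comparison, Itga5, the fibronectin receptor chain, had 28.1 and 58.5 CPM in cluster 6 and 1.19 and 1.93 CPM in the other tumor cells (edgeR adjusted p = 8.4e-06), and Itgb1, its partner, had 509.9 and 748 CPM in cluster 6 and 216 and 214 CPM in the other tumor cells (edgeR adjusted p = 7.4e-04). Itga9 was the third that was higher, and none of the 5 tested was lower. Among the processing enzymes 3 of 4 were higher, namely Mmp3, Plau, which encodes urokinase, and Fam20c. Of the genes for partners of CD44 or regulators of its splicing, 1 was higher and 2 were lower. The higher one was Msn, moesin, with 343 and 436 CPM in cluster 6 and 181 and 169 CPM in the other tumor cells. The 2 lower ones were the splicing regulators Esrp1 and Esrp2. Of the adhesion genes 4 of 9 were higher, with Fermt1 at 101 and 123 CPM in cluster 6 and 11.8 and 17.8 CPM in the other tumor cells. All of these counts stand beside 12.1% higher and 6.63% lower among all genes tested.

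The transcription factor genes went both ways in the comparison with the other tumor cells, with 3 of 6 higher and 1 lower. Of all genes tested there, 12.1% were higher and 6.63% lower. Runx2 had 36.9 and 18.9 CPM in cluster 6 and 4.54 and 4.46 CPM in the other tumor cells (edgeR adjusted p = 8.2e-04), and Ets1 had 176 and 265 CPM in cluster 6 and 57.6 and 47.3 CPM in the other tumor cells (edgeR adjusted p = 3.4e-04). Elf5, the alveolar ETS factor, had 43.4 and 17.6 CPM in cluster 6 and 158 and 127 CPM in the other tumor cells (edgeR adjusted p = 4.4e-04). Runx1 was the third higher gene (edgeR adjusted p = 0.0059). It had 326 and 374 CPM in cluster 6 and 189 and 181 CPM in the other tumor cells. Thus of the ETS genes Ets1 was higher and Elf5 was lower. The RUNX and ETS letters of the Spp1 promoter shown above do not tell which member of a family, if any, acts there.

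Whether single cells carried both Spp1 and a receptor gene was asked within clusters at 2000 UMIs per cell. The observed number of cells with both was set against the number expected if the genes were detected independently within each cluster, summed over clusters. For Cd44 the observed numbers were 220 against 193 expected in mouse 1 and 300 against 279 expected in mouse 2, ratios of 1.14 and 1.08. For Itgav they were 129 against 111 and 262 against 216, ratios of 1.16 and 1.21. Both genes were thus found with Spp1 slightly more often than independence gives, in both mice, with no test, since cells of 1 tumor are not replicates. Thinning levelled the depth of cells and not other differences among cells of a cluster.

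Most of the Itgav excess came from cluster 0. There 21.9% of cells with Spp1 also had Itgav in mouse 1 (exact 95% interval 16.9 to 27.5%), against 14.6% of cells without Spp1 (12.1 to 17.4%), and in mouse 2 the shares were 37.8% (31.8 to 44.2%) against 22.2% (19.7 to 24.8%). Without cluster 0 the mean ratio of the mice was 1.08, against 1.19 with it. In cluster 6, Itgav was found in 20.8% and 38.4% of cells with Spp1, against 16.7% and 33.3% of cells without Spp1. In cluster 6 the shares were thus higher in cells with Spp1 in both mice, with overlapping intervals. Overlap does not decide whether they differ, and the difference was not tested.

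For Cd44 in cluster 6, 48.3% of cells with Spp1 had the receptor gene in mouse 1 and 49.3% in mouse 2, against 38.5% and 41.7% of cells without Spp1. In cluster 0 the shares were 36.03% and 40.2% in cells with Spp1, against 29.5% and 34.5% in cells without Spp1. Each share was higher in the cells with Spp1, and all of these intervals overlapped within a mouse. Overlap of intervals does not decide whether Cd44 differs between these cells, and the difference was not tested. Over whole mice, before clusters were taken into account, the difference was 34.7% against 23.2% in mouse 1 and 27.3% against 24.8% in mouse 2.

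**Figure D4:**
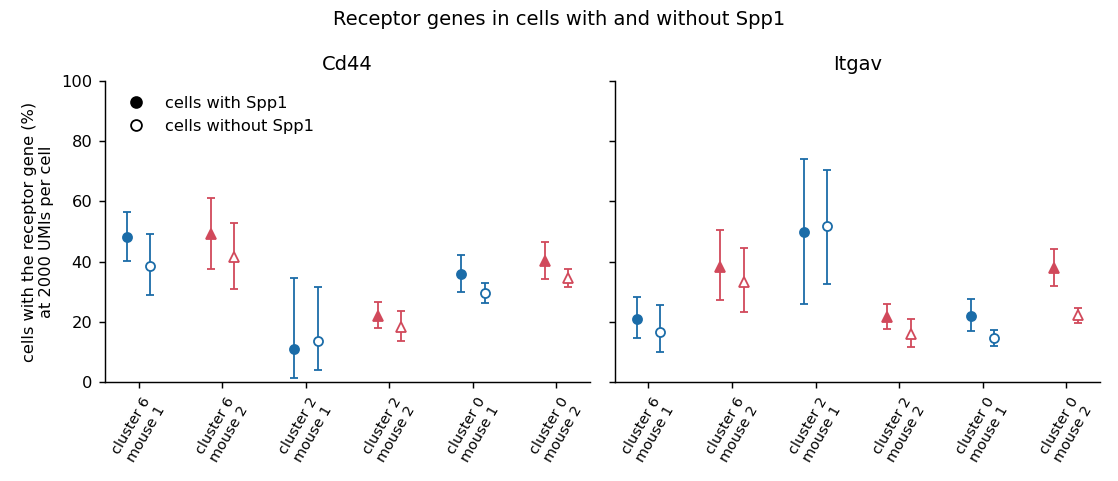
Share of cells with Cd44 (left) or Itgav (right) at 2000 UMIs per cell, in cells with Spp1 (filled) and without Spp1 (open), for clusters 6, 2 and 0 in mouse 1 (circles) and mouse 2 (triangles), with exact 95% intervals that cover counting error. Intervals are apart only for Itgav in cluster 0 of mouse 2, at 37.8% and 22.2%.

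The beta chains were too sparse for a pattern within clusters. Itgb3 was found with Spp1 in 15 and 22 cells, against 14.2 and 17.3 expected, and Itgb5 in 46 and 79 cells, against 41.2 and 76.7 expected. The mean ratio of Itgb3 fell below 1 with another random draw (0.770) and at 5000 UMIs (0.993), and that of Itgb5 at 1000 UMIs (0.878). Itgav and its partner chains were likewise found together about as often as independence gives, with ratios of 1.19 and 0.928 for Itgb3 and 1.02 and 0.990 for Itgb5. Itgav and Cd44 had 1.18 and 1.16.

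At 5000 UMIs per cell, with shallower cells left out, receptor genes could be counted as sets. In cluster 6, 78.9% of 142 Spp1-positive cells in mouse 1 and 70.8% of 72 in mouse 2 had Cd44, against 75.8% of 219 and 66.7% of 135 in all of its cells at that depth. All cells include the Spp1-positive ones, so gaps in this paragraph are narrower than those against cells without Spp1. Both Itgav and Itgb5 were found in 11.3% and 13.9% of the Spp1-positive cells, against 11.9% and 16.3% of all cells. Both Itgav and Itgb3 were found in 2.82% and 8.33%, against 3.20% and 7.41% of all cells. At least 1 of these receptor sets was found in 80.3% (exact 95% interval 72.8 to 86.5%) and 73.6% (61.9 to 83.3%) of the Spp1-positive cells, against 77.6% and 74.1% of all cells. In cluster 13 at that depth, 10 of 70 cells and 35 of 175 cells had Cd44. An absent transcript at this depth does not show an absent receptor.

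Cluster 6 was not uniform in Spp1, and the cells with both keratin types were not those with the most. Among its cells with under 3 fibroblast genes, 95 and 53 had a UMI of the luminal keratin genes Krt8 or Krt18 and none of the basal keratin genes Krt5 or Krt14, and 69 and 65 had UMIs of both types. Spp1 stood at 7954 and 13332 CPM in the cells with luminal keratins only, against 1246 and 4834 CPM in the cells with luminal and basal keratins. A UMI of Spp1 was found in 78.9% (exact 95% interval 69.4 to 86.6%) and 75.5% (61.7 to 86.2%) of the cells with luminal keratins only, against 39.1% (27.6 to 51.6%) and 50.8% (38.1 to 63.4%) of those with both. Median depths were close, at 13825 and 8171 UMIs with luminal keratins only and 12276 and 8603 UMIs with both types. These groups were formed from the same cells after clustering and were not tested.

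Cd44 went the opposite way in the same cells. It stood at 266 and 319 CPM in the cells with luminal keratins only, against 343 and 440.4 CPM in the cells with luminal and basal keratins. Itgb5 had 50.01 and 56.6 CPM with luminal keratins only, against 73.0 and 69.5 CPM with both types, and Itgav 89.5 and 256 CPM against 139 and 261 CPM. So in both tumors the ligand was higher, and Cd44 and Itgb5 were lower, in the keratin class without basal keratins, while Itgav was nearly equal in mouse 2. Itgb3 differed in direction between the mice, with 13.4 and 29.4 CPM against 15.0 and 15.3 CPM.

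The 66 and 39 cluster 6 cells with at least 3 fibroblast genes had 10566 and 2324 CPM of Spp1, so the mice disagreed on whether these cells were above or below their cluster. Their Cd44 level was 441 and 486 CPM and their Itgb5 level 108 and 173 CPM, in both mice the highest of the 3 classes. For Itgb5 the level of cluster 6 without the cells of other types was 59.7 and 69.7 CPM, against 72.4 and 86.8 CPM with them.

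**Figure D5:**
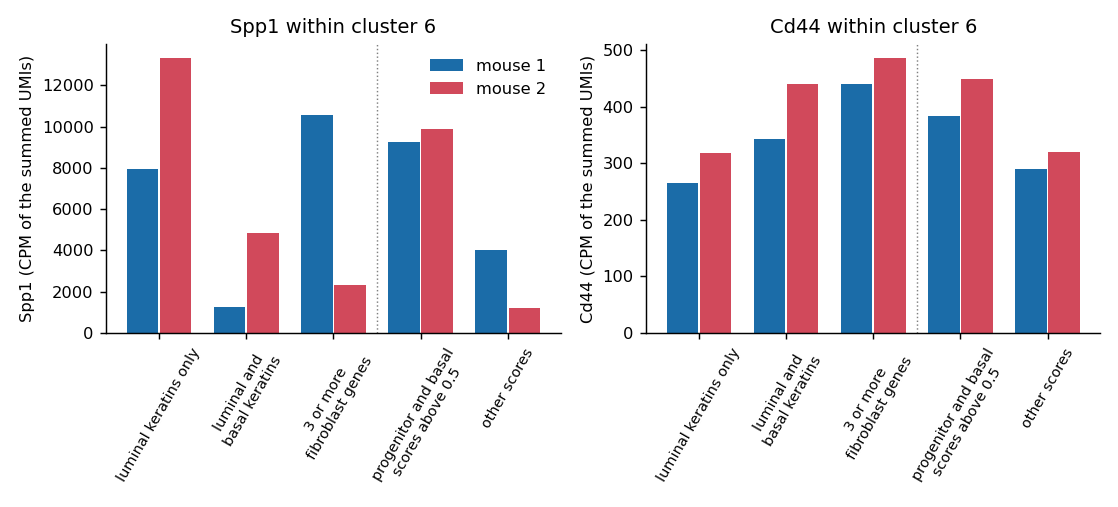
Spp1 (left) and Cd44 (right) within cluster 6, as CPM of the summed UMIs in mouse 1 and mouse 2, by keratin and fibroblast genes (left of the dotted line) and by the authors' signature scores (right of it). Spp1 is higher in cells with luminal keratins only (7954 and 13332 CPM) than with luminal and basal keratins (1246 and 4834 CPM), and Cd44 is lower (266 and 319 CPM, against 343 and 440.4 CPM).

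The authors' signature scores, which run from 0 to 1 and sum many genes, gave another view of the same cells. In cluster 6, the 146 and 112 cells with both the luminal progenitor and the basal score above 0.5 had 9243 and 9880 CPM of Spp1, against 3998 and 1190 CPM in the other 114 and 55 cells. Outside cluster 6, the 185 and 309 cells with both scores above 0.5 had 2631 and 3153 CPM, against 513 and 949 CPM in the remaining cells. Cells that scored high for both signatures thus had more Spp1 in both mice, inside cluster 6 and outside it. Whether Spp1 is among the genes of these signatures is not given in the sources used here, and the relation was not tested. Cd44 differed in the same direction inside cluster 6, with 384 and 449 CPM against 290.3 and 320 CPM, and outside it, with 181 and 204 CPM against 147 and 152 CPM.

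By the highest of the 3 scores, Spp1 was lowest in cells led by the mature luminal score. It stood at 1041 and 1605 CPM in the 1992 and 2958 cells led by the luminal progenitor score, at 1410 and 1138 CPM in the 954 and 898 cells led by the basal score, and at 277 and 373 CPM in the 883 and 1474 cells led by the mature luminal score. The order of the first 2 differed between the mice. Cd44 was also lowest in the cells led by the mature luminal score, at 128 and 132 CPM, against 170 and 170 CPM with the progenitor score and 167 and 178 CPM with the basal score. Itgav was highest with the progenitor score in both mice, at 97.7 and 124 CPM.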

How the data were processed

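The authors sequenced 10x Genomics 3′ libraries of sorted GFP-positive tumor cells from 2 mice and aligned them with Cell Ranger 6.0.1 to mm10. The deposited matrices hold raw UMI counts for 32285 genes. The authors' deposited annotation gives a cluster, a mitochondrial fraction and 3 signature scores per cell; it was made with Seurat (4.0.3 in the processing notes) after removal of called doublets, of cells with 500 or fewer UMIs or 200 or fewer genes, and of lymphoid and myeloid clusters. No doublets were called anew.

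UMI counts were summed per mouse and cluster and given as CPM. Sums were tested with edgeR 4.0.16 (R 4.3.3, limma 3.58.1) using filterByExpr, TMM, a block for the mouse, and p-values adjusted by Benjamini-Hochberg (threshold 0.05). Cells of 1 animal pair the sums, and the difference between the mice in 1 group correlated with that in the other across genes (Pearson r 0.138 with cluster 13 and 0.390 with the other tumor cells). Each fit had 1 residual degree of freedom. Tested on simulated sums of 9882 genes for clusters 6 and 13, edgeR called 22 of 100 genes changed 2-fold and 85 of 100 changed 4-fold, and on 14862 genes for the other tumor cells it called 25 and 74 of 100. Detection used cells thinned to 2000 UMIs (seed 1) and exact Clopper-Pearson 95% intervals.

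The genes, gene lists and tests were chosen with earlier results of these data known. Named were the 5 members; per list and comparison up to 3 genes past the threshold with the largest change; and per member the 3 genes of most similar pattern, among genes with at least 20 CPM in a cluster of each mouse and 100 UMIs in each mouse. Alternatives were DESeq2 1.42.0, other size factors, no filter, no block, thinned sums, each sum left out, other cell types left out and, for clusters 6 and 13, all 36 sums in 1 fit. Positions are from GENCODE vM21, promoters from RefSeq (GRCm38.p6), both on the build of the matrices. Computations used Python 3.11.15, numpy 2.4.6 and scipy 1.17.1.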

Additional observations from a re-analysis of the deposited data

Results flagged for a closer look

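The genes were also measured in barcodes that the authors' annotation does not cover and that no comparison above uses, 2346 in mouse 1 and 2208 in mouse 2, with median depths of 1280 and 1160 UMIs. Spp1 stood at 412 and 404 CPM there, Cd44 at 98.0 and 221 CPM, Itgav at 50.8 and 70.0 CPM, Itgb5 at 17.5 and 34.0 CPM, and Itgb3 at 5.10 and 4.39 CPM, each on more than 3 counts. Of these barcodes, 2311 and 1948 had a mitochondrial share above that of any annotated cell. The remaining 35 and 260 carried more Cd44, at 523 and 573 CPM. Barcodes with UMIs of at least 3 macrophage genes, 24 and 192 in number, had 567 and 624 CPM of Cd44 but 11.8 and 696 CPM of Spp1, so the 2 tumors differed in the ligand in such barcodes. In mouse 2, 34 barcodes with at least 3 neutrophil genes had 2166 CPM of Cd44 and 1534 CPM of Spp1, from 113 and 80 UMIs. The relation of these barcodes to the Spp1 of annotated cells was not tested.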

How the results depend on the processing

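Of 104 recomputed log2 fold changes of the 5 genes, 78 kept their direction and their side of the threshold, 25 lost the call and 1 reversed, that of Itgav with cluster 13 without the cluster 6 sum of mouse 2 (with 1 sum left out it ran from -0.31 to 0.68). Against cluster 13, 2782 genes were called, 997 with DESeq2 and 1130 with thinned cells, and leaving out 1 sum gave 0 to 1387, with 0 (edgeR) without the cluster 6 sum of mouse 2, where 3053 genes had an unadjusted p under 0.05. Against the other tumor cells 2693 were called, 967 with no replicate block and 1647 with thinned cells, and leaving out 1 sum gave 525 to 973. Without the block 1996 genes were called against cluster 13. With 1 sum left out, the lone sum is assumed to vary like the others. Spp1 kept its call against the other tumor cells in every alternative run. These runs reuse cluster 6 values of the cells in which the study picked Spp1, so this is a description. The mean co-detection ratios of 1.11 (Cd44), 1.19 (Itgav), 1.16 (Itgb3) and 1.07 (Itgb5) became 1.06 for Cd44 and 0.993 for Itgb3 at 5000 UMIs, 0.878 for Itgb5 at 1000 UMIs, 1.04 and 1.08 for Cd44 and Itgav with no thinning, 0.770 for Itgb3 with another seed, and 1.08 and 1.33 for Itgav and Itgb3 without cluster 0. With expected numbers from the whole mouse they were 1.22, 1.35, 1.35 and 1.17. By mouse they ran from 1.08 to 1.14, 1.16 to 1.21, 1.05 to 1.27 and 1.03 to 1.12. The causes were not tested. Thinned sums gave no test of Itgb3 with cluster 13. With 2 tumors of 1 group, mouse and library cannot be told apart. The p-values of the fits with the mouse as a block rest on how the difference between clusters varied between these 2 tumors only.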
